A study of Mus musculus with 8 samples.

Results

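The genes described here encode the machinery that copies DNA: 39 genes for the licensing of replication origins, the activation of the replicative helicase, the replication fork, the supply of nucleotides, the rebuilding of chromatin behind the fork and the control of entry into S phase. They were listed by gene name, with earlier results of these data known, from the 54532 genes of the deposited count table. All 39 had a row there. RNA was taken from the stomach corpus, which secretes acid and pepsinogen, in 8 untreated mice of a mixed C57BL/6 and CD1 background, each library from 1 animal. The 4 controls were Six2-Cre+/- PKAcaR wt/wt and the 4 mutants Six2-Cre+/- PKAcaR fl/wt, so every animal carried the Cre and the groups differed in 1 floxed PKAcaR copy, an allele known to encode a catalytic subunit of protein kinase A (PKA) that, after recombination by Cre, no longer needs cyclic AMP for its activity. The Cre is driven by the promoter of Six2, a transcription factor gene, and the labels do not say in which cells it acted, nor the age of the mice.

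Before S phase, the origin recognition complex, CDC6 and CDT1 load the ring of MCM2 to MCM7 proteins onto DNA, and geminin, the product of Gmnn, binds CDT1 and prevents a second loading. CDC45, the GINS proteins and MCM10 then turn the loaded rings into working helicases, and DNA polymerases, the sliding clamp and its loader copy the strands. In the corpus, division is known to take place mainly in the isthmus of the gland, while mature parietal and chief cells divide rarely.

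The control libraries held 18942308 to 22814152 counted reads and the mutant libraries 18184281 to 23814720. Levels are given as CPM, read counts divided by library sizes that were scaled with TMM factors, a scaling built on the genes that change least. Prkaca, the gene the allele alters, was at 86.0, 79.8, 77.8 and 77.1 CPM in controls 1 to 4 and at 36.8, 40.7, 37.0 and 37.1 in mutants 1 to 4, and it fell by 1.08 on the log2 scale (SE 0.09, adjusted p = 0.000604). Reads of Pgc (pepsinogen C) made up 20.7% to 31.2% of each control and 0.107% to 4.6% of each mutant, so the choice of scaling matters and is taken up below. Control 3 and mutant 3 held squamous transcripts (484 and 3776 reads of Krt5, a basal keratin, against at most 1 in the other libraries).

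More replication genes rose than fell in the mutant corpus, with Gmnn the sole member called lower. Of the 39 members, all tested, 14 were higher (35.9%) and 1 was lower (2.56%) at an adjusted p under 0.05, beside 9.39% of all 15862 genes tested that were higher and 10.8% that were lower. The other 24 members were not called. DESeq2 called 18 members higher and limma-voom 21, with 1 lower in each, beside 14.6% and 16.4% of all genes higher and 15.0% and 19.3% lower. In 36 members the log2 fold change was positive. The median log2 fold change of the members was 0.65, beside 0.07 for all genes tested. In 18 members all 4 mutants lay above all 4 controls, and in 1 all 4 lay below, beside 14.2% and 16.1% of all genes tested. These values are read from bulk RNA, in which more dividing cells and more RNA per dividing cell cannot be told apart.

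**Figure D1:**
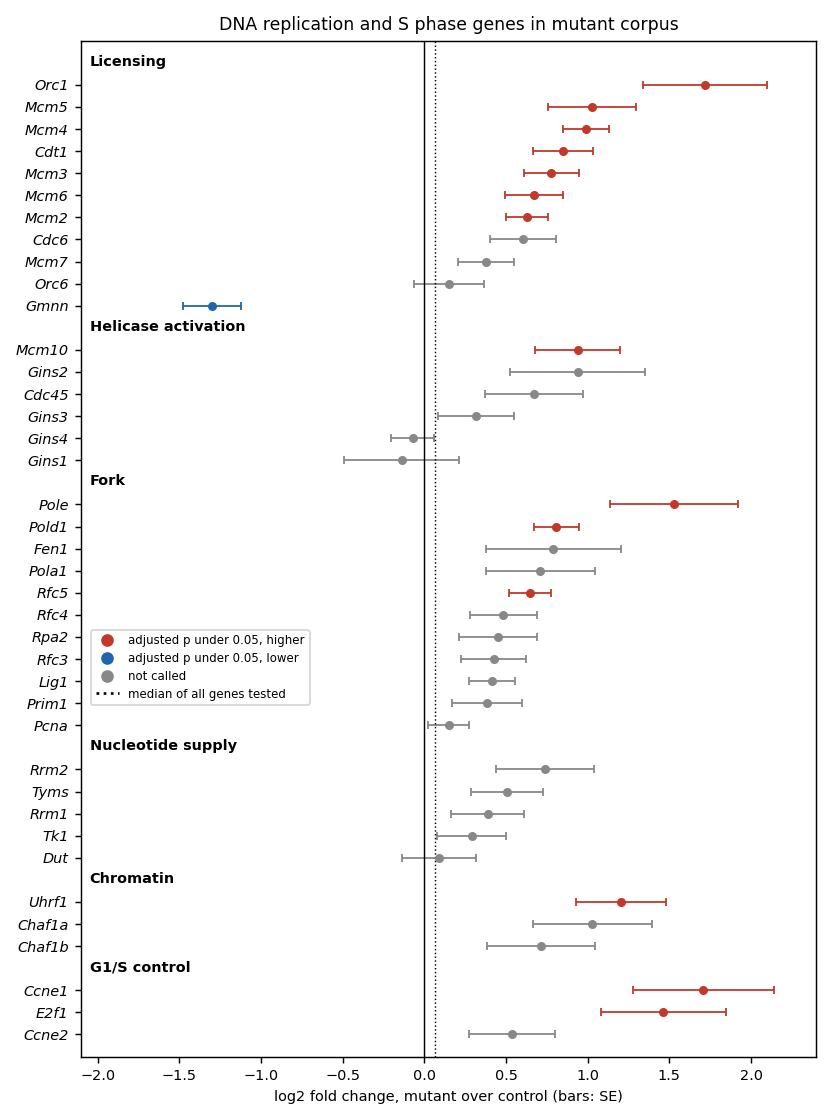
Log2 fold change, mutant over control, of the 39 members by role (points: estimate, bars: SE, red: called higher, blue: called lower, grey: not called, dotted line: median of all genes tested). The 14 members called higher lie between 0.63 and 1.72, and Gmnn stands alone at -1.30.

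The licensing genes held 7 of the 14 rises. Of 11 licensing genes, 7 were higher (63.6%, beside 9.39% of all genes tested) and 3 were not called. The remaining 1 was lower (9.09%), a share near the 10.8% of all genes tested. Among the subunits of the MCM2 to MCM7 ring, 5 of 6 rose (83.3%, beside the same 9.39%). Mcm4 (GRCm38 chromosome 16, 15623897 to 15637400, minus strand) was at 12.0, 16, 13.1 and 15.4 CPM in controls 1 to 4 and at 25.3, 32.0, 25.3 and 29.6 in mutants 1 to 4. Every mutant lay above every control, and the level rose 1.99-fold (log2 fold change 0.99, SE 0.14, adjusted p = 0.00333). Mcm5 was at 18.8, 20.7, 10.5 and 11.2 CPM in controls and at 25, 31.2, 27.4 and 41.3 in mutants. Its groups did not overlap, although controls 1 and 2 lay well above controls 3 and 4, and the change was 2.04-fold (log2 fold change 1.03, SE 0.27, adjusted p = 0.0306). Mcm3 went from 22.9, 25.6, 19.1 and 15.5 CPM to 34.5, 37.8, 30.6 and 39.3, a 1.71-fold rise without overlap (log2 fold change 0.78, SE 0.17, adjusted p = 0.0161).

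Mcm2 and Mcm6 rose by less. Mcm2 was at 21.3, 25.2, 22.5 and 20.2 CPM in controls and at 31.2, 30.4, 35.2 and 41.1 in mutants (log2 fold change 0.63, SE 0.13, adjusted p = 0.0134). Mcm6, the most abundant of the ring genes in mutants by length-scaled level, was at 37.0, 42.0, 31.3 and 24.8 CPM in controls and at 47.6, 49.4, 52.9 and 64.6 in mutants (log2 fold change 0.67, SE 0.18, adjusted p = 0.0325). In both genes the lowest mutant lay above the highest control. Mcm7, the remaining ring subunit, was at 27.2 to 41.4 CPM in controls and 38.0 to 51.6 in mutants and was not called (log2 fold change 0.38, SE 0.17, adjusted p = 0.150). Mcm7 also shares 12.6% of its exonic bases with other genes, which matters because the strand setting of the counting is not given in the sources used here. The call of Mcm5 was lost when control 1, 3 or 4 or mutant 4 was omitted (adjusted p up to 0.0783), Mcm6 without control 1, 3 or 4 or mutant 3 or 4 (up to 0.0849), and Mcm3 without control 3 (0.0511).

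Per length, the ring genes were not equally abundant. The deposited FPKM is a level scaled by gene length and library size. The library sizes it implies lie near the TMM-scaled sizes, not the read totals. It averaged 7.42 ± 1.56 for Mcm7, 7.17 ± 1.56 for Mcm6, 5.49 ± 1.15 for Mcm3, 3.90 ± 0.51 for Mcm4, 3.8 ± 1.28 for Mcm5 and 3.18 ± 0.30 for Mcm2 in controls (SD, n = 4 each). In mutants the order was Mcm6 at 11.4 ± 1.61, Mcm7 at 9.65 ± 1.32, Mcm3 at 9.41 ± 1.01, Mcm5 at 7.76 ± 1.77, Mcm4 at 7.76 ± 0.91 and Mcm2 at 4.92 ± 0.69. Neighbours within SD of each other, such as Mcm7 and Mcm6 in controls or Mcm5 and Mcm4 in both groups, were not separated. Mcm2 had the lowest mean in both groups, within SD of Mcm5 in controls.

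The remaining licensing genes bind origins, load the ring or restrain loading. Orc1, the large subunit of the origin recognition complex, was at 0.251, 0.791, 0.574 and 0.598 CPM in controls and at 1.44, 2.17, 1.60 and 2.14 in mutants. These levels rest on 4 to 12 reads per control and 37 to 53 per mutant, and 10.8% of the exonic bases of Orc1 lie opposite Gm12743. No mutant overlapped the controls, and the 3.29-fold rise (log2 fold change 1.72, SE 0.38, adjusted p = 0.0164) was no longer called once control 3 was omitted (adjusted p = 0.0514). Orc6, another subunit of that complex, was at 7.4 to 11.7 CPM in controls and 8.84 to 12.5 in mutants (log2 fold change 0.15, SE 0.21, adjusted p = 0.641). Cdc6, which loads the ring together with CDT1, was at 5.30 to 7.51 CPM in controls and 7.93 to 11.8 in mutants. Its groups did not overlap, yet it was not called (log2 fold change 0.60, SE 0.20, adjusted p = 0.0687).

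Cdt1 and its inhibitor Gmnn moved in opposite directions. Cdt1 (chromosome 8, 122568015 to 122573554, plus strand) was at 7.16, 8.96, 7.47 and 5.44 CPM in controls and at 13.3, 12.7, 11.8 and 14.5 in mutants. All mutants lay above all controls, a 1.80-fold rise (log2 fold change 0.85, SE 0.18, adjusted p = 0.0157) that lost its call without mutant 4 (adjusted p = 0.0502). Gmnn (chromosome 13, 24751845 to 24761923, minus strand) was at 31.7, 25.3, 22.3 and 20.9 CPM in controls and at 12.4, 8.67, 9.31 and 10.2 in mutants. Every mutant lay below every control, a 2.47-fold lower level (log2 fold change -1.30, SE 0.18, adjusted p = 0.00287), and Gmnn kept its call in each of the 20 other fits. The number of Cdt1 reads per Gmnn read, which does not depend on how libraries are scaled, was 0.226, 0.354, 0.335 and 0.261 in controls 1 to 4. In mutants 1 to 4 it was 1.08, 1.46, 1.27 and 1.41. This ratio was formed after the values were seen, so it is given without a test.

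**Figure D2:**
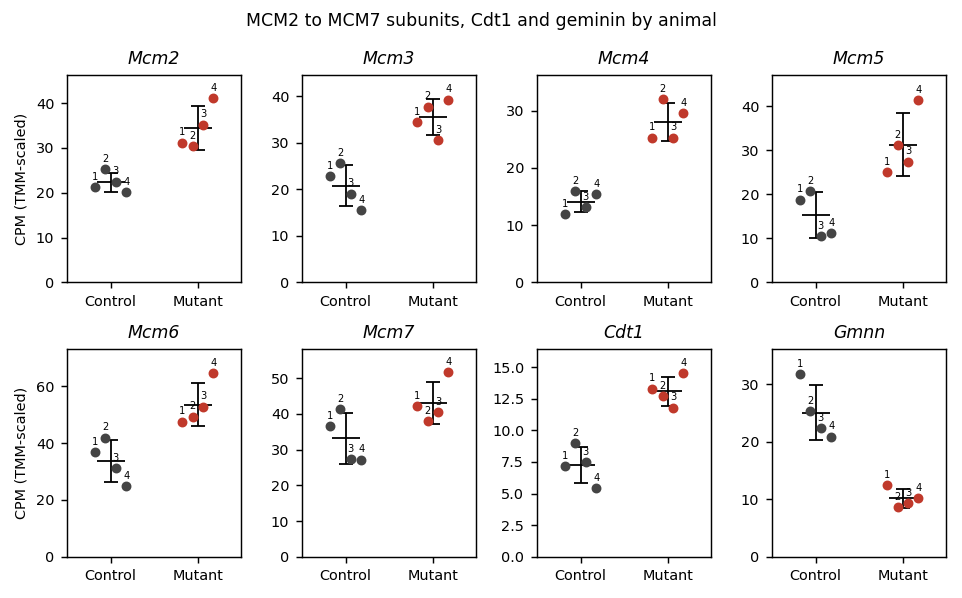
Level in CPM (TMM-scaled, linear axes from 0) of Mcm2 to Mcm7, Cdt1 and Gmnn in the 4 controls (grey) and 4 mutants (red), numbered by animal, with mean and SD. In each panel but that of Mcm7 the groups do not overlap, and Gmnn alone is lower in mutants (8.67 to 12.4 against 20.9 to 31.7).

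The promoters of the members were searched for short motifs well known from cell-cycle genes. E2F factors, which turn on S phase genes, bind sites of the types TTTCCCGC or TTTCGCGC or TTTGCCGC or TTTGGCGC. RefSeq promoter windows (GRCm38.p6, 250 bases before to 50 after the start of transcription) were at hand for 32 of the 39 members, and both strands were searched. At least 1 of those 4 letter strings was present in 13 of the 32 members (40.6%), beside 2.60% of all 27025 genes with a window, where a gene with several windows counted if any held it. Among the matched members, 7 of 12 that were called and 6 of 20 that were not called held it. A CCAAT box (CCAAT, either strand) was in 19 of 32 members (59.4%), beside 41.1% of genes. The CHR-type strings TTTGAA and TTCGAA, known from genes of late cell-cycle phases, were in 6 of 32 (18.8%), beside 21.7%.

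Up to 4 called members with the most E2F-type matches, ties taken by the smaller p, are shown 5′ to 3′ with the matches in capitals, followed by a called member without a match. Bases in the transcribed part are limited to a short stretch around the match. Mcm6 (chr1:128359706-128359955, minus strand, all 250 bases before the start) and Mcm5 (chr8:75109259-75109508, plus strand, likewise) each hold a pair of matches that overlap on opposite strands and read as 1 block of capitals, and Mcm6 a further match nearer the start. Mcm3 (chr1:20820264-20820293, minus strand) and Pold1 (chr7:44548766-44548795, minus strand) have theirs just after the start. Rfc5 (chr5:117389024-117389273, minus strand, 250 bases before the start) has none in its window. The match is a description of the letters, not of binding.
Mcm6: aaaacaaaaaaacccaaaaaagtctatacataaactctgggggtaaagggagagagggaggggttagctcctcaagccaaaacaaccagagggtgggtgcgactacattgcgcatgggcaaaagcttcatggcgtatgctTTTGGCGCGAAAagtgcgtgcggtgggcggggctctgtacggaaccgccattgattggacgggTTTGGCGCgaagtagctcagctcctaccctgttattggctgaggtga
Mcm5: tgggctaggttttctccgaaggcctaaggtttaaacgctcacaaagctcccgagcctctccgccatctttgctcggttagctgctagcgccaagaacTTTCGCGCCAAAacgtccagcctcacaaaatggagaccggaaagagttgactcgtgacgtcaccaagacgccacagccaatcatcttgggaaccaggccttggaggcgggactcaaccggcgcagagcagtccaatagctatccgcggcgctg
Mcm3: GCGGGAAAacttgggaagtTTTGGCGCcaa
Pold1: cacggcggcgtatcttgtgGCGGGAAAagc
Rfc5: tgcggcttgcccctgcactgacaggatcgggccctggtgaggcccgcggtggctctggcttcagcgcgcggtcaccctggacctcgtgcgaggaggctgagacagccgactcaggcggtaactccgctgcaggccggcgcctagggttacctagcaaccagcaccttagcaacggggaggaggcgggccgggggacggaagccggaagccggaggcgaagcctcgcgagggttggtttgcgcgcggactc

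Of the 6 helicase activation genes, Mcm10 alone was called (16.7%, beside 9.39% of all genes tested that were higher). Mcm10, which promotes the step from loaded to active helicase, was at 7.72, 7.12, 4.85 and 5.44 CPM in controls and at 14.4, 8.38, 9.92 and 15.5 in mutants. Mutant 2 was closest to the controls, and the 1.92-fold rise (log2 fold change 0.94, SE 0.26, adjusted p = 0.0375) lost its call without any 1 control, mutant 1 or mutant 4 (adjusted p up to 0.0976). No GINS gene was called by edgeR, DESeq2 or limma-voom, with 0, 1 and 0 of the 4 at an unadjusted p under 0.05. For 4 genes, no call is near the share of all genes tested that were higher. Gins2 had the largest change of the 4, from 1.20 to 4.02 CPM in controls to 3.32 to 7.85 in mutants (log2 fold change 0.94, SE 0.42, adjusted p = 0.141), and 67.3% of its exonic bases lie opposite Gse1. Gins1, at 2.43 to 7.18 CPM in controls and 3.19 to 5.52 in mutants, had the largest p of the group (log2 fold change -0.14, SE 0.35, adjusted p = 0.803). Gins4, at 13.2 to 17.6 and 13.5 to 15.8 CPM, had a log2 fold change of -0.07 (SE 0.13). Cdc45, the helicase partner of GINS, was at 2.69 to 4.33 CPM in controls and 3.88 to 7.97 in mutants, and was not called (0.67, SE 0.30, adjusted p = 0.147).

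At the fork, 3 of 11 genes rose by edgeR (27.3%, beside 9.39% of all genes tested) and 8 were not called. DESeq2 called 5 and limma-voom 6, beside 14.6% and 16.4% of all genes tested that were higher. All 11 log2 fold changes were positive. Pold1 (chromosome 7, 44532746 to 44548849, minus strand), the catalytic subunit of lagging-strand polymerase delta, was at 15.6, 11.9, 12.4 and 13.5 CPM in controls and at 20.2, 24.4, 22.3 and 26.7 in mutants. The groups were well apart, with a 1.75-fold rise (log2 fold change 0.81, SE 0.14, adjusted p = 0.00666). Pole, the catalytic subunit of leading-strand polymerase epsilon, was at 3.01, 4.48, 1.72 and 1.74 CPM in controls and at 5.31, 9.90, 6.17 and 10.2 in mutants. Control 2 came closest to the mutants, and the 2.88-fold rise (log2 fold change 1.53, SE 0.39, adjusted p = 0.0285) was not called in fits without control 1, 3 or 4 or mutant 4 (adjusted p up to 0.0775). Rfc5, a subunit of the clamp loader, was at 12.4, 12.3, 10.1 and 10.3 CPM in controls and at 17.5, 19.1, 16.3 and 17.7 in mutants (log2 fold change 0.64, SE 0.13, adjusted p = 0.012). Its groups did not overlap. Rfc5 shares 10.7% of its exonic bases with Wsb2 on the opposite strand.

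Pcna, the sliding clamp and a common marker of dividing cells, had the highest CPM of the members and was not called. It was at 62.0, 71.9, 52.3 and 58.2 CPM in controls and at 62.4, 65.1, 66.4 and 76.9 in mutants, groups that overlapped broadly (log2 fold change 0.15, SE 0.12, adjusted p = 0.416). Pcna has annotated pseudogene copies, Pcna-ps1 and Pcna-ps2, with which reads could be shared. The other clamp loader genes Rfc3 and Rfc4, polymerase alpha and primase genes Pola1 and Prim1, the single-strand binding subunit gene Rpa2, the flap nuclease gene Fen1 and the ligase gene Lig1 had log2 fold changes between 0.38 and 0.79 and were not called. In Pola1, Rfc4 and Lig1 all mutants still lay above all controls. Fen1 was among the rarest members, at 0.538 to 1.71 CPM in controls and 1.34 to 2.44 in mutants, and 84.2% of its exonic bases lie under other annotated genes.

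Nucleotide supply genes gave no call, which for 5 genes is near the 9.39% of all genes tested that were higher. All 5 log2 fold changes were positive, with a median of 0.39, beside 0.07 for all genes tested. Of Rrm1 and Rrm2, the subunits of ribonucleotide reductase, Tyms, thymidylate synthase, Tk1, thymidine kinase, and Dut, which removes dUTP, 0 of 5 were called by edgeR, DESeq2 or limma-voom, with 2, 2 and 1 at an unadjusted p under 0.05. Rrm2 was at 9.73, 13.5, 8.68 and 8.74 CPM in controls and at 12.3, 24.9, 10.5 and 20.1 in mutants. Mutants 2 and 4 were high and mutants 1 and 3 lay below control 2 (log2 fold change 0.74, SE 0.30, adjusted p = 0.115). Dut was at 9.99 to 15.8 CPM in controls and 9.59 to 16.5 in mutants (0.09, SE 0.23, adjusted p = 0.803). Rrm1, Tyms and Tk1 had log2 fold changes of 0.39, 0.50 and 0.29.

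Among the 3 genes that restore chromatin and its methylation, Uhrf1 rose by edgeR (33.3%, beside 9.39% of all genes tested). DESeq2 called 2 and limma-voom all 3, beside 14.6% and 16.4% of all genes tested that were higher. Uhrf1, which brings the maintenance methyltransferase to newly copied DNA, was at 18.3, 16.4, 8.62 and 9.39 CPM in controls and at 25.3, 33.0, 26.3 and 37.0 in mutants. Controls 1 and 2 again lay above controls 3 and 4, without reaching the mutants, and the 2.31-fold rise (log2 fold change 1.20, SE 0.27, adjusted p = 0.0194) lost its call without mutant 4 (adjusted p = 0.0548). Chaf1a and Chaf1b, subunits of the chromatin assembly factor that places histones on new DNA, overlapped between groups and were not called. Chaf1a was at 2.30 to 7.51 CPM in controls and 6.60 to 11.2 in mutants (1.03, SE 0.37, adjusted p = 0.0801), with 52.5% of its exonic bases opposite Ubxn6. Chaf1b was at 3.06 to 8.56 and 8.06 to 10.1 CPM (0.72, SE 0.33, adjusted p = 0.155).

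Genes of entry into S phase held some of the largest changes of the list. Ccne1, cyclin E1, which activates CDK2 at the end of G1, was at 3.01, 1.84, 1.53 and 0.838 CPM in controls and at 4.81, 9.28, 4.18 and 5.36 in mutants. All mutants were above all controls, with mutant 2 highest, a 3.26-fold rise (log2 fold change 1.71, SE 0.43, adjusted p = 0.0276). E2f1, which drives transcription of S phase genes, was at 4.14, 3.76, 2.11 and 1.68 CPM in controls and at 5.75, 11.6, 5.73 and 9.13 in mutants (log2 fold change 1.46, SE 0.38, adjusted p = 0.0307), again without overlap. Neither was called in fits without control 2, 3 or 4 or mutant 4 (adjusted p up to 0.0827 and 0.0882). Ccne2, cyclin E2, was at 3.11 to 5.2 CPM in controls and 4.81 to 7.4 in mutants and was not called (0.54, SE 0.26, adjusted p = 0.176).

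**Figure D3:**
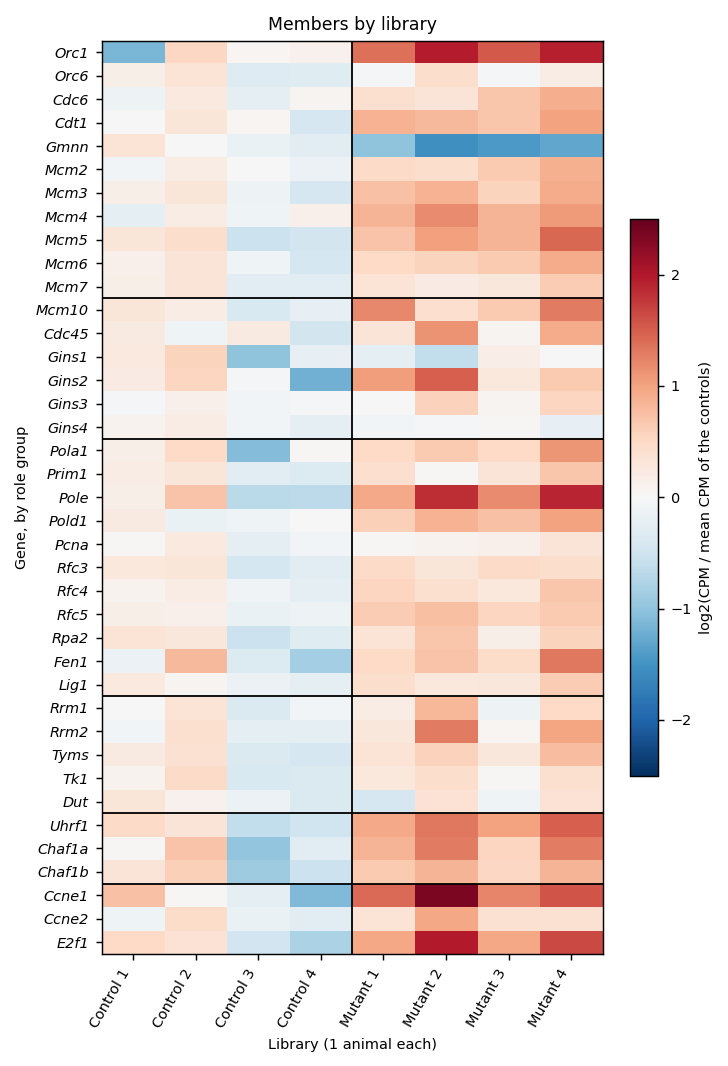
The 39 members (rows, by role, separated by lines) in the 8 libraries (columns), coloured by log2 of the CPM over the mean CPM of the controls. In 32 rows all 4 mutants lie above the control mean, and Gmnn lies below it in all 4. In 32 rows controls 1 and 2 both lie above controls 3 and 4. No share of all genes tested is given for these counts.

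The animals of a group differed in the list as a whole. Relative to each gene's control mean, the median member stood at 1.1, 1.24, 0.848 and 0.820 in controls 1 to 4 and at 1.40, 1.62, 1.37 and 1.79 in mutants 1 to 4. Controls 1 and 2 both lay above controls 3 and 4 in 32 of the 39 members. Mutants 2 and 4 both lay above mutants 1 and 3 in 24. Mutant 4 exceeded every control in 33 members, mutant 2 in 30, mutant 1 in 25 and mutant 3 in 20. No share of all genes tested is given for these patterns, so they cannot be called particular to the members. The number of members higher was 6 without control 3, 6 without mutant 4, 8 without control 4 and 1 without both libraries with squamous transcripts. The share of all genes tested that were higher also fell in these fits, from 9.39% to 4.32%, 5.21%, 5.77% and 3.67%. The share of members higher stayed above that of all genes tested in the fits without control 3, mutant 4 or control 4. Without both libraries with squamous transcripts it was below, at 1 of 39 members beside 3.67%. The single member higher in that last fit was Mcm4, and Gmnn was lower in it. Called in each fit that left out 1 library were Gmnn, Mcm2, Mcm4, Pold1 and Rfc5.

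Further replication genes outside the list rose in part. Of 50 such genes, 9 were higher by edgeR (18%, beside 9.39% of all genes tested) and none lower (beside 10.8%), where 1 gene had an unadjusted p under 0.05 in the lower direction and DESeq2 and limma-voom gave 1 and 0 lower. Their median log2 fold change was 0.31, beside 0.65 for the members and 0.07 for all genes tested. Pold3, an accessory subunit of polymerase delta, was at 18.6 to 22.9 CPM in controls and 35.8 to 53.4 in mutants (log2 fold change 1.13, SE 0.14, adjusted p = 0.00214). Dtl, the adaptor of the ubiquitin ligase that removes CDT1 during S phase, was at 1.98 to 3.82 and 5.95 to 9.30 CPM (1.52, SE 0.28, adjusted p = 0.00895). Dnmt1, the maintenance methyltransferase that UHRF1 recruits, was at 33.3 to 42.1 and 53.9 to 76.5 CPM (0.75, SE 0.14, adjusted p = 0.00947). Topbp1, which helps activate the helicase and the replication checkpoint, was at 17.6 to 26.4 and 31.7 to 40.9 CPM (0.69, SE 0.15, adjusted p = 0.0172), a call that ended without control 1 (adjusted p = 0.0543) and without control 3 and mutant 3 together (0.0609). None of these 4, named for their small p, overlapped between groups. Of the 50 genes, 13 had all mutants above all controls and 1 had all below, beside 14.2% and 16.1% of all genes tested. The count of 9 fell to 4 without control 1, control 3 or mutant 4 and to 5 without control 4. In these fits the share of all genes tested that were higher also fell, from 9.39% to 4.08%, 4.32%, 5.21% and 5.77%.

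Upstream of S phase, 26 of 27 cyclin, kinase, E2F, pocket protein and CDK inhibitor genes were tested, of which 6 were higher (23.1%, beside 9.39% of all genes tested) and 3 lower (11.5%, beside 10.8%, a share near the background). Ccnd1, cyclin D1, which starts the passage through G1, was at 32.0 to 39.2 CPM in controls and 67.2 to 94.5 in mutants (log2 fold change 1.17, SE 0.14, adjusted p = 0.00196). Tfdp1, a DNA-binding partner of the E2F proteins, rose from 33.0 to 43.2 CPM in controls to 57.6 to 77.1 in mutants (0.82, SE 0.13, adjusted p = 0.0048). Its relative Tfdp2 was lower, at 73.3 to 93.7 and 24.9 to 50.4 CPM (-1.09, SE 0.21, adjusted p = 0.00965). The other genes called lower were CDK inhibitors. Cdkn2b, which inhibits the cyclin D kinases, was at 39.7 to 60.1 CPM in controls and 12.2 to 23.6 in mutants (-1.52, SE 0.215, adjusted p = 0.00332). Cdkn1c was at 46.7 to 75.6 and 10.3 to 31.0 CPM (-1.55, SE 0.365, adjusted p = 0.0216). Its call ended when control 1 or 2 was omitted (adjusted p = 0.0641 and 0.0546) and with replicate number as a block (0.0693). With column totals as library sizes it ended too (0.0636), as did that of Tfdp2 (log2 fold change -0.40, adjusted p = 0.104). Of the inhibitors tested but not called, Cdkn1b and Cdkn2d had positive log2 fold changes (0.27 and 0.14). Those of Cdkn1a and Cdkn2c were negative (-0.62 and -0.10).

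Genes of mitosis, the phase after replication, were taken from a separate list. Of 25, Plk1, a mitotic kinase, was the single gene called (4.0%, below the 9.39% of all genes tested that were higher). In 24 of the 25 the log2 fold change was positive, beside 8730 of all 15862 genes tested. Plk1 was at 186, 93.7, 145 and 130 CPM in mutants 1 to 4, against 68.2 to 80.7 in controls (log2 fold change 0.92, SE 0.20, adjusted p = 0.0147). It was lowest in mutant 2, the mutant with the highest median over the list. Plk1 was not called without control 3 and mutant 3 (adjusted p = 0.0917). Without mutant 3 alone 3 of the 25 mitosis genes were higher, near the 9.56% of all genes tested that were higher in that fit. None was lower by edgeR, DESeq2 or limma-voom, nor at an unadjusted p under 0.05. Mki67, the gene of the Ki-67 proliferation antigen, was at 25.2 to 48.4 CPM in controls and at 41.1, 75.8, 31.8 and 63.9 in mutants 1 to 4 (0.49, SE 0.30, adjusted p = 0.272). Top2a, a topoisomerase of late S phase and mitosis, was at 20.7 to 33.1 CPM and at 36.5, 82.3, 25.4 and 59.7 (0.92, SE 0.35, adjusted p = 0.0963). In both genes mutants 2 and 4 were high and mutant 3 lay inside the control range. Relative to control means the median mitosis gene stood at 1.02, 2.23, 0.752 and 1.59 in mutants 1 to 4, where 9, 25, 1 and 19 of the 25 genes exceeded every control and 3, 0, 10 and 0 lay below every control. The median log2 fold change of the mitosis list was 0.51, beside 0.65 for the replication list, and the difference between the lists was not tested.

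**Figure D4:**
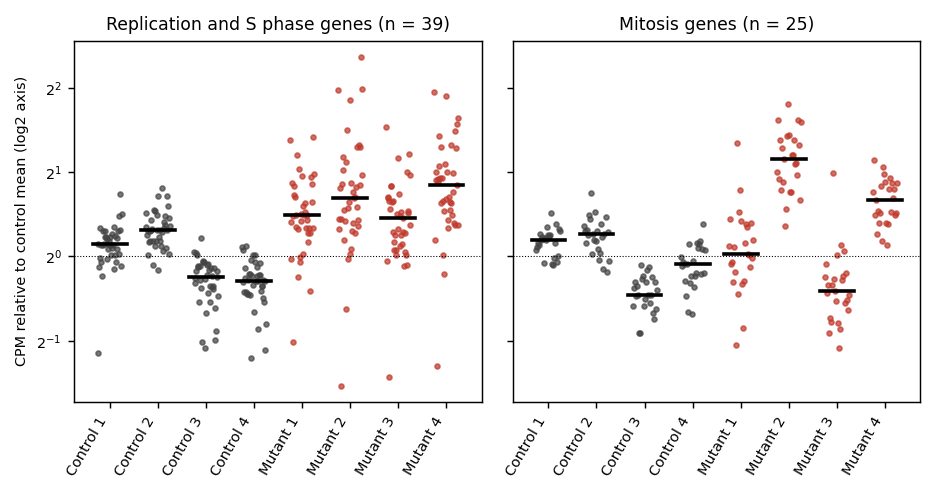
CPM relative to the control mean (log2 axis) of each of the 39 replication genes (left) and 25 mitosis genes (right) in each library, with the median as a bar. The replication medians of the mutants lie between 1.37 and 1.79, whereas the mitosis medians run from 0.752 in mutant 3 to 2.23 in mutant 2.

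Markers of the cell types of the corpus also differed between the groups. Beside the counts that follow, 9.39% of all genes tested were called higher and 10.8% lower. The summed CPM of 8 parietal cell markers was 15500 to 19600 in controls and 228 to 2510 in mutants, and 6 of the 8 were lower. Of 6 chief cell markers 3 were lower and 1, Cym, was higher, with sums of 298000 to 534000 and 1110 to 46700 CPM. All 6 smooth muscle markers were lower (2600 to 3570 against 233 to 750 CPM), and all 4 mucous neck markers were higher (2390 to 6200 against 9110 to 26800 CPM). The 4 pit cell markers each lay below all controls in all mutants without being called, beside 16.1% of all genes tested that lay so. Their sums were 39300 to 63900 and 4280 to 33300 CPM. By sum, immune and red blood cell markers were highest in mutant 2. Red blood cell markers summed to 36.2 to 74.2 CPM in controls and 17.7 to 397 in mutants (0 of 5 higher). T cell markers summed to 2.89 to 4.94 CPM in controls and 5.56 to 45.7 in mutants (3 of 6 higher), B and plasma cell markers to 7.66 to 30.8 and 98.6 to 628 (2 of 6 higher), and myeloid markers to 128 to 142 and 148 to 1700 (2 of 7 tested higher, Ly6g at 0 in all controls). The part of these shifts in the rise of replication genes was not tested. Without mutant 2 the number of members higher was 16, and the share of all genes tested that were higher was 15.2%.

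The number of members called depended on how libraries were scaled. With column totals as library sizes, 37 members were higher and 1, Gmnn, was lower, beside 59.3% and 4.56% of all genes tested. Under that scaling the median over all genes moved up by 0.70 on the log2 scale, and that of the members went from 0.65 to 1.34. Gmnn itself was at -0.61 with column totals (SE 0.20, adjusted p = 0.0245). The 15 members called kept their sign in every other fit that tested them. Gins4 went from -0.07 to 0.62 and was then called (SE 0.15, adjusted p = 0.00767), and Gins1 from -0.14 to 0.53 without a call (adjusted p = 0.243).

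**Figure D5:**
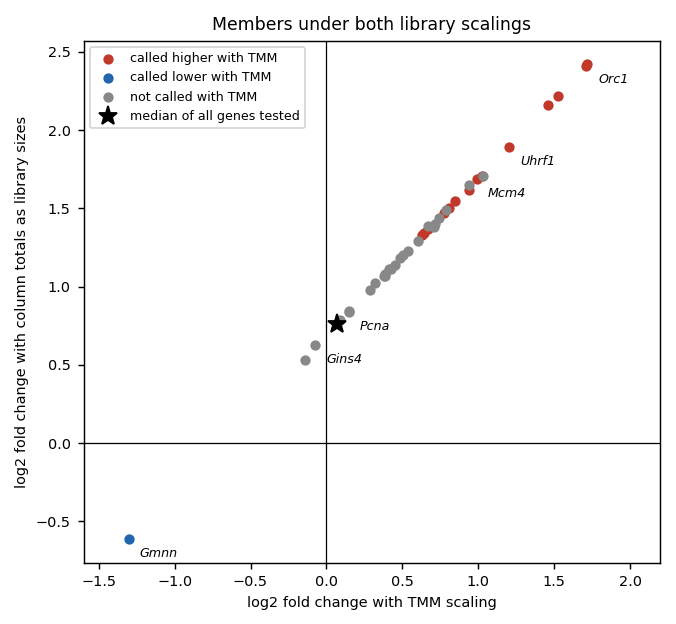
Log2 fold change of each member with TMM scaling (horizontal) and with column totals as library sizes (vertical), coloured by the TMM call, with the median of all genes as a star. The points lie along a line shifted upward by 0.70, and Gmnn is the sole member below 0 on both axes.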

How the data were processed

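RNA was extracted with Trizol and sequenced as NEBNext Ultra libraries, per the labels' protocols. For each gene the authors deposited a raw count and an FPKM value per library. The submitters' processing notes list CASAVA, fastp, STAR 2.5 and featureCounts with no role for each. Genome build and strand setting: not given in the sources used here. The coordinates of all 39 members equal those of GENCODE M21 (GRCm38), from which exonic overlaps were taken. A column headed SCI was read as SC1. Libraries within a group differed beyond sampling noise (chi-square per degree of freedom at least 15.5).

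The 15862 genes kept by filterByExpr were TMM-scaled and fitted together in edgeR 4.0.16 (robust quasi-likelihood test, R 4.3.3) as mutant over control. An adjusted p (Benjamini-Hochberg, over all genes tested) under 0.05 was a call, and comes from edgeR where no tool is named. SE is the log2 change over the square root of F. A floor of 3 counts is 0.100 to 0.198 CPM, for counting error only. The design text calls the animals biological replicates, so p-values measure the spread between animals.

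Members, lists and the naming rule were chosen with earlier results of these data known. The rule named all called members, the members with the smallest and largest p in each of 6 roles, in each other list at most the 4 called genes with the smallest p and the gene with the largest change in the rarer direction, Prkaca, Mki67 and Top2a. Further members were named after their values were seen. Promoters shown are of called members, up to 4 with the most E2F-type matches (ties by p) and 1 with none.

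Other fits were DESeq2 1.42.0; voom with sample weights (limma 3.58.1); edgeR with RLE factors, with column totals, with TMM computed apart from parietal and chief genes, with no filter, with a stricter filter (CPM 1 or more in 4 libraries) and with replicate number as a block; fits omitting each library, or control 3 and mutant 3; and, for the deposited FPKM, limma-trend on log2 values with a pseudocount of 1 or 0.1, keeping genes averaging 0.5 or more, or all genes. The FPKM carry a library scaling near that of TMM, so the FPKM fits are not a separate check on scaling. Stricter thresholds were also applied. The edgeR code was tested on simulated data.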

Additional observations from a re-analysis of the deposited data

Results flagged for a closer look

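Of 104 groups of 4 libraries looked at (the members, Prkaca and the other named genes), 2 had a library whose gap to its nearest neighbour was most of the group's range, and chance gives about 1 in 20. In mutants, Ccne2 was at 7.4 CPM in mutant 2 against 4.81 to 4.93 in the others. Prkaca was at 40.7 CPM in mutant 2 against 36.8 to 37.1 in the other mutants.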

How the results depend on the processing

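The count of members lower (1) was the same in every alternative. The count of members higher (14) was 37 with column totals, 6 with the replicate block, 9 with log2(FPKM + 1) and no filter, 2 at an adjusted p under 0.01 and 1 without control 3 and mutant 3 together, and 6 to 16 with each library left out in turn. The share of all genes tested that were higher moved too, from 9.39% to 59.3% with column totals and 4.71% with the block. It was 2.83% with log2(FPKM + 1) and no filter and 3.67% without control 3 and mutant 3 together. With each library left out in turn it was 4.08% to 15.2%. Fewer animals or residual degrees of freedom enter the block and left-out fits. Beyond those, the cause of a change was not tested.

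The wider replication count (9 higher) was 16 with DESeq2, with 1 lower, 17 with limma-voom, 47 with column totals, 5 with no low-count filter and with each of the 3 FPKM fits, 3 at an adjusted p under 0.01, 3 without control 3 and mutant 3, and 4 to 13 with each library left out. Of all genes tested, 14.6% were higher with DESeq2, 16.4% with limma-voom, 3.95% with no low-count filter and 2.83% to 8.2% with the FPKM fits. The cyclin and inhibitor counts (6 higher, 3 lower) were 10 and 5 with limma-voom, 20 and 1 with column totals, 2 higher at an adjusted p under 0.01, and 5 to 8 higher and 2 to 5 lower with each library left out. The mitosis count (1 higher) was 2 with DESeq2, 17 with column totals, 0 with the replicate block, at an adjusted p under 0.01 and without control 3 and mutant 3, and 1 to 3 with each library left out. Prkaca stayed lower and called in every alternative, at -1.12 to -1.04 with a library left out. With column totals its change was smaller, at -0.38 (SE 0.12, adjusted p = 0.02). Gins4 changed sign and was called with column totals, at 0.62. Gins1 and Dut also changed sign in some fits without a call in any that did: Gins1 reached 0.53 with column totals and 0.11 in another fit, and Dut -0.02.

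No pairing of animals by replicate number is stated. Same-numbered deviations from the group means correlated at 0.06, -0.09, 0.06 and 0.00 (0.00346). Such correlations cannot exclude a pairing, since control 3 and mutant 3, which share squamous transcripts, were also at 0.06. The block kept 7 of the 15 calls, among them Gmnn, Mcm4, Pold1 and Rfc5. Members at a few reads, such as Orc1 and Fen1, are limited by depth.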

Other observations

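Cdkn2a, the gene of the p16 and p19 CDK and MDM2 inhibitors, did not pass the low-count filter, and was looked at after its values were seen. It was at 0.440, 0.132, 0 and 0.0598 CPM in controls 1 to 4 and at 0.167, 7.48, 0.431 and 0.729 in mutants 1 to 4. Mutant 2 held 183 of its reads and each other library 17 or fewer.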
